A study of Mus musculus with 10 samples.

Results

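Smooth muscle contractile genes were examined in mouse cardiomyocytes, the cells whose contraction drives the heartbeat, after delivery of dnMKL1. This is a dominant-negative MKL1, and MKL1, or MRTF-A, is a coactivator of transcription. The group was set by name and holds 10 genes of the 23337 in the authors' table: the transgelins Tagln and Tagln2, the calponins Cnn1, Cnn2 and Cnn3, the myosin heavy chain gene Myh11, the myosin light chain gene Myl9, the light chain kinase gene Mylk, the smoothelin gene Smtn and the caldesmon gene Cald1. All 10 genes were found, and all 10 passed the authors' filter on low values. Smooth muscle contracts when calcium and calmodulin activate myosin light chain kinase, which phosphorylates the regulatory light chain and so switches on the myosin motor. Calponin, caldesmon, transgelin and smoothelin bind actin filaments, and calponin and caldesmon hold the motor in check. Many of these genes are known targets of serum response factor (SRF), a transcription factor that binds the CArG box in DNA and is joined there by MKL1, MKL2 or myocardin.

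The 5 GFP libraries came from wild-type mice given AAV9, an adeno-associated virus, that carried GFP alone behind the cTNT promoter, and the 5 dnMKL1 libraries from wild-type mice given the same kind of virus with dnMKL1 and GFP. The promoter is that of cardiac troponin T, which is active in heart muscle cells. Both groups received 500000000 viral genomes per gram on postnatal day 1, and cells were collected on postnatal day 14 by collagenase perfusion and fluorescence-activated sorting. The question put to the 10 genes is which of them differ in level when dnMKL1 is added to GFP.

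The one table used here holds the authors' comparison and no values per library. Each gene therefore has a base mean (counts divided by the authors' size factors and averaged over all 10 libraries), a log2 fold change with its standard error (SE), and a Wald p-value with Benjamini-Hochberg adjustment. Base mean and fold change together give the level of a gene in each group, called its implied mean here, in normalized counts. Estimated library totals ran from 8802947 to 17123060 counts for GFP and from 8835151 to 17228265 for dnMKL1. The direction of the fold change was read from Mkl1, whose log2 fold change of 9.80 (SE 0.15) in the authors' deposited table was taken as higher in dnMKL1 libraries, and reads of the vector and of the endogenous gene are not separated in it. The labelled cell type was checked on 10 cardiomyocyte markers, whose implied means had a sum of 1598974 for GFP and 862317 for dnMKL1. Fewer cells of a type and less RNA per cell cannot be told apart in such libraries.

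The promoters of 2 genes are shown because these genes had the largest rise and the largest fall of the group, and theirs were the only windows of the group with a complete CArG box. RefSeq promoter windows (GRCm38.p6, from 250 bases before to 50 bases after a start site) were used for 8 of the 10 genes, 9 windows in all, and none was used for Tagln and Myh11. The CArG box is a motif of 10 bases with a pair of C, a run of A or T and a pair of G, and it reads as a CArG box on either strand. The bases before the first annotated start are given on the plus strand, 5′ to 3′, at chr10:79988350-79988583 for Cnn2 and at chr2:156775214-156775407 for Myl9, with the CArG box in capitals.
Cnn2: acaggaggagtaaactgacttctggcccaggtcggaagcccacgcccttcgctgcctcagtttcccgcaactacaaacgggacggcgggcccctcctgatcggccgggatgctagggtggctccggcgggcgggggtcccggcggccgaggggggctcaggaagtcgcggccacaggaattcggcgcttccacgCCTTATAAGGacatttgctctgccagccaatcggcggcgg
Myl9: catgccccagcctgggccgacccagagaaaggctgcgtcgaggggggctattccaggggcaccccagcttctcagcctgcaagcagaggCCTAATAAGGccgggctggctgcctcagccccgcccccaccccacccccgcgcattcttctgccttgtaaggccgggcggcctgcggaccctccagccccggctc

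In the Cnn2 promoter the box lay at chr10:79988544-79988553, from 56 to 47 bases before the start site used for the window. In Myl9 it lay at chr2:156775303-156775312, from 161 to 152 bases before the start site, and a copy with 1 mismatch followed at chr2:156775365-156775374. The first of the 2 Cald1 windows also held a copy with 1 mismatch, at chr6:34598301-34598310. The windows of Tagln2, Cnn1, Cnn3, Mylk and Smtn held neither form, which says only that these letters are not in these windows. A complete CArG box was present in 1.63% of all 32851 windows, and a box with at most 1 mismatch in 21.1%. Over all genes tested, 165 had a window with a complete box, of which 25 were higher and 33 lower in dnMKL1 libraries, with a median log2 fold change of 0.02. Of the 9766 tested genes with a window and no box, 1671 were higher and 1752 lower, also with a median of 0.02. The box thus stood in front of genes that moved in either direction, in the group as in the table.

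The genes of the group did not move as one in dnMKL1 libraries. By an adjusted p under 0.05 in the authors' deposited table, Cnn2, Cald1, Myh11, Tagln and Cnn3 rose, Myl9 fell, and Cnn1, Tagln2, Mylk and Smtn did not pass the test. The 5 genes that rose compare with a background of 16.6% of 14056 genes tested that were higher, and the 1 that fell with 17.4% that were lower. At an adjusted p under 0.01 the higher genes were 3, against 11.9% of all genes tested, and with a log2 fold change of at least 1 only Cnn2 was left, against 4.65%. At an unadjusted p under 0.05 there were 7 genes, against 33.8% of all 17363 genes with a p-value. That share also covers genes that did not pass the authors' filter on low values, whereas all 10 genes passed it. The median log2 fold change of the group was 0.65, beside 0.02 over all genes tested, and the values ran from -1.24 to 1.21. Fold changes varied with the level of a gene. At base means from 100 to 1000, where 6 of the 10 genes lie, 20.0% of genes were higher and 19.3% lower. From 1000 to 10000, where Smtn lies, these shares were 14.4% and 40.1%. They were 19% and 7.7% from 10 to 100, where Tagln and Mylk lie, and 5.84% and 2.19% under 10, where Cnn1 lies.

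**Figure D1:**
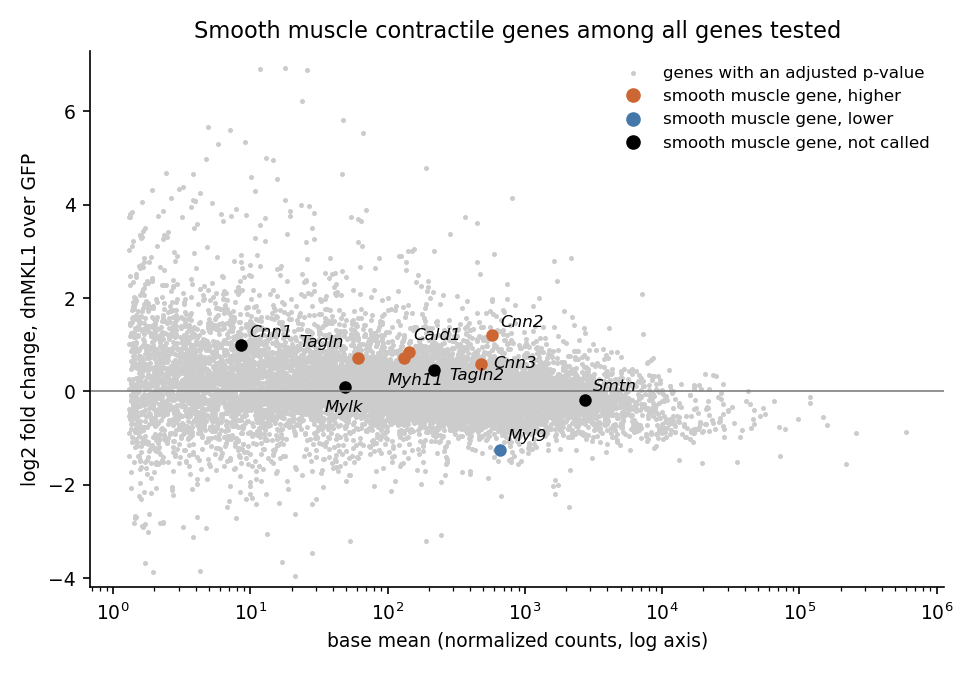
Log2 fold change (dnMKL1 over GFP) against the base mean in normalized counts on a log axis; each grey point is a gene with an adjusted p-value and the coloured points are the 10 smooth muscle contractile genes, while Mkl1 at 9.80 lies above the plotted range. Cnn2 (1.21) and Myl9 (-1.24) have base means of the same order and lie on opposite sides of 0.

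Directions depend in part on the scaling. The implied means of all genes added up to 13330302 for GFP and 10915829 for dnMKL1, so that scaling both groups to the same total adds 0.29 to every log2 fold change. Under that scaling 7 of the 10 genes were higher, with Tagln2 and Cnn1 added, against 40.4% of all genes tested, and Myl9 remained the 1 lower gene, against 6.6%. Myl9 was at -0.96 on that scale, and Smtn changed sign without passing the test, from -0.18 to 0.11.

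**Figure D2:**
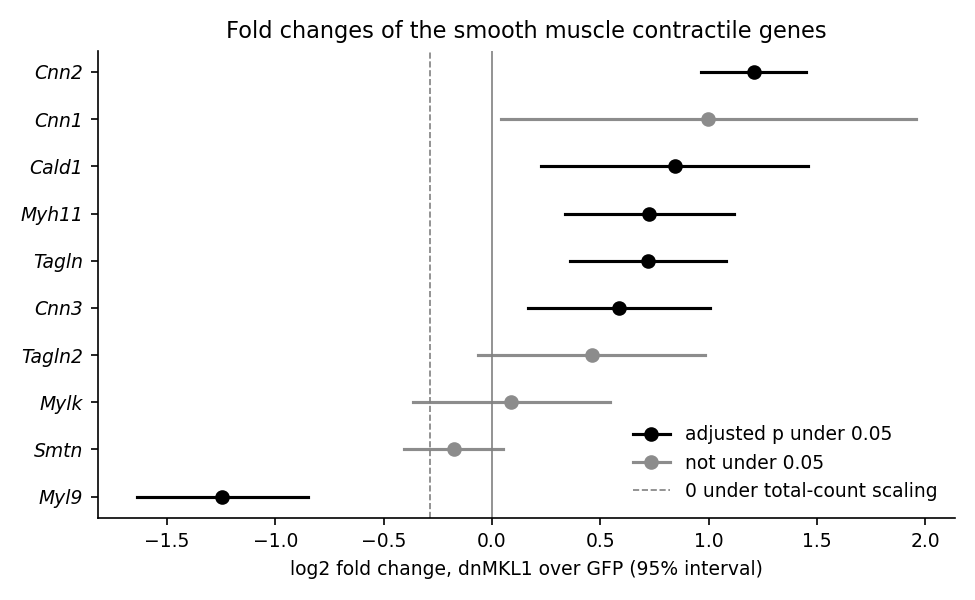
Log2 fold change of each gene (dnMKL1 over GFP, authors' scaling) with its 95% Wald interval; black marks an adjusted p under 0.05, grey the others, and the dashed line shows where 0 would lie if both groups were scaled to the same total. The intervals of Cnn2, Cald1, Myh11, Tagln and Cnn3 lie above 0 and that of Myl9 lies below both lines. The interval of Cnn1 also lies above 0, though its adjusted p is not under 0.05.

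The motor genes Myh11 and Myl9, whose products form the smooth muscle myosin, moved in opposite directions. Myh11 encodes the heavy chain that defines differentiated smooth muscle. Its implied mean went from 99.2 normalized counts with GFP to 164.1 with dnMKL1, a 1.65-fold rise (95% interval 1.26 to 2.17; log2 fold change 0.73, SE 0.20, adjusted p = 0.00139 in the authors' deposited table). Myl9 encodes the regulatory light chain that is phosphorylated to start contraction. Its implied mean went from 921.8 to 388.9 normalized counts, a 2.37-fold fall (log2 fold change -1.24, SE 0.20, 95% interval -1.64 to -0.85, adjusted p = 1.19e-08 in the authors' deposited table). On the authors' scaling Myl9 thus had the largest change of the 10 genes in either direction, while Cnn2 had it under scaling to equal totals (1.50 on the log2 scale). The intervals of the heavy chain and the light chain gene lie on opposite sides of 0.

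Mylk, which encodes the smooth muscle and non-muscle light chain kinase, had implied means of 47.8 and 50.9 normalized counts in the GFP and dnMKL1 groups. Its log2 fold change was 0.09 (SE 0.23) with a 95% interval from -0.36 to 0.54, so that changes of up to 1.46-fold upward remain within the error (adjusted p = 0.826 in the authors' deposited table). Gene-level values do not separate the long and short kinase or telokin, which the same locus encodes. Exons of E130310I04Rik on the opposite strand overlap 4.87% of the exon bases of Mylk, and that gene had a log2 fold change of -3.20 (SE 0.27) in the authors' deposited table. Whether the counting used strand is not given in the sources used here, so that its part in the Mylk value was not tested.

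All 3 calponin genes, which encode actin-binding inhibitors of myosin, had positive log2 fold changes. Cnn2, the calponin of many non-muscle cells as well as smooth muscle, went from 349.3 to 806.6 normalized counts, a 2.31-fold rise (95% interval 1.95 to 2.73; log2 fold change 1.21, SE 0.12, adjusted p = 2.00e-20 in the authors' deposited table). Cnn3, the acidic calponin, went from 381.3 to 571.9 normalized counts, a 1.50-fold rise (95% interval 1.12 to 2.01; adjusted p = 0.0216). Annotated exons of Gm42928 on the opposite strand cover 17.7% of the exon bases of Cnn3, and the authors' table holds no value under that symbol. Cnn1, the calponin restricted to smooth muscle in the adult, had implied means of only 5.72 and 11.4 normalized counts. Its log2 fold change of 1.00 (SE 0.49) was close to that of Cnn2 in size but did not pass the test (adjusted p = 0.103 in the authors' deposited table), and its 95% interval ran from 0.04 to 1.96. Cnn2 therefore overtook Cnn3 in normalized counts between the groups, while Cnn1 was low in both.

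The transgelins are calponin-related proteins that cross-link actin. Tagln, also called SM22, is an early marker of smooth muscle, and its implied mean went from 46.0 to 75.9 normalized counts, a 1.65-fold rise (95% interval 1.28 to 2.12; log2 fold change 0.72, SE 0.18, adjusted p = 0.000542 in the authors' deposited table). Tagln2, the form of non-muscle and blood cells, went from 184.7 to 254.1 normalized counts, with a log2 fold change of 0.46 (SE 0.27) that did not pass the test (95% interval -0.07 to 0.98; adjusted p = 0.186). The intervals of Tagln and Tagln2 overlap over most of their length, and no difference between them was tested. Annotated exons of Gm48529 on the opposite strand cover 62.4% of the exon bases of Tagln and those of Pcsk7 cover 5.43%. Pcsk7 had a log2 fold change of -0.24 (SE 0.07) in the authors' deposited table, which holds no value under the symbol Gm48529.

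Caldesmon and smoothelin complete the actin-binding set. Cald1 went from 102.9 to 184.6 normalized counts, a 1.79-fold rise with a wide error (95% interval 1.17 to 2.75; log2 fold change 0.84, SE 0.32, adjusted p = 0.0250 in the authors' deposited table). The heavy caldesmon of smooth muscle and the light form of other cells come from the same gene and are not separated here. Smtn was the most abundant of the 10 genes, at 2914 normalized counts with GFP and 2579 with dnMKL1. Its log2 fold change was -0.18 (SE 0.12, 95% interval -0.41 to 0.05, adjusted p = 0.258 in the authors' deposited table), and as given above its sign depended on the scaling. Of its exon bases, 16.3% are shared with Gm11946 on the opposite strand, a symbol for which the authors' table holds no value.

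**Figure D3:**
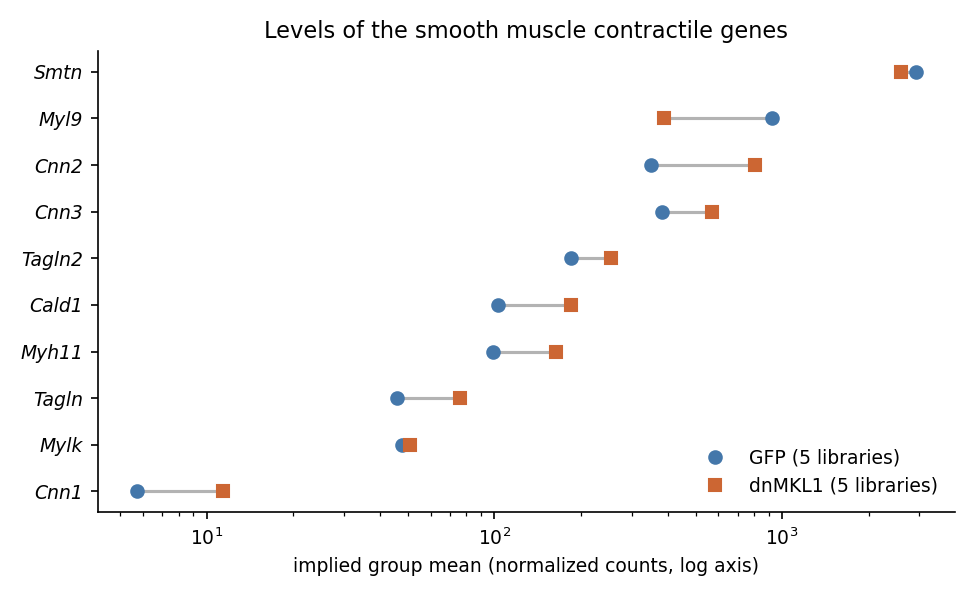
Implied mean of each gene in the GFP group (circles) and the dnMKL1 group (squares), in normalized counts on a log axis, with genes ordered by base mean. The genes span from Cnn1 at 5.72 to Smtn at 2914 in the GFP group, and among the better expressed genes the longest lines are those of Myl9, which points down, and Cnn2, which points up.

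The error of these values differed between the genes. The coefficient of variation between replicates that corresponds to each SE was 12.7% for Smtn, 12.7% for Cnn2, 15.1% for Tagln, 19.8% for Myh11, 21.0% for Mylk and 21.6% for Myl9. It was 23.0% for Cnn3, 28.5% for Tagln2, 33.4% for Cald1 and 39.1% for Cnn1. In the class of base means between 100 and 1000 the median was 11.8% and the upper quartile 15.5%, so that Cnn2 was near the middle of that class while Myh11, Myl9, Cnn3, Tagln2 and Cald1 were above its upper quartile. Only 3.55% of the genes in the class had a larger coefficient than Cald1, and 5.39% a larger one than Tagln2. The 12 endothelial markers, genes of another cell type, had a median of 35.9%, and the 9 markers of mural cells, which wrap vessels, one of 25.9%. Whether a varying share of other cells enters the spread of the 10 genes was not tested.

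Levels of different genes were compared per kilobase of the longest annotated transcript, on the scale of normalized counts. In the GFP group the order was Smtn (860.7 per kilobase), Myl9 (817.2), Cnn3 (172.2), Cnn2 (142.0), Tagln2 (116.5), Tagln (28.9), Cald1 (21.5), Myh11 (15.2), Mylk (6.12) and Cnn1 (2.40). Smtn and Myl9, Cnn3 and Cnn2, and Cnn2 and Tagln2 are neighbours that differed by less than the larger coefficient of variation of the pair. That coefficient was derived from the SE and was not measured on values per library. It stands for a spread between libraries, which is larger than the error of a group mean, and no difference between neighbours was tested. Tagln lay 33.9% above Cald1, which is at the edge of the 33.4% spread of Cald1. The order in the dnMKL1 group was the same except that Cnn2 (327.9) stood above Cnn3 (258.3), while Myl9, still in the second place, was down to 344.8. With the mean transcript length in place of the longest, 42 of the 45 pairs of genes kept their order in the GFP group. The exchange of Cnn2 and Cnn3 between the groups depends on the length used. Cnn3 was higher in both groups with mean transcript lengths, and Cnn2 in both with all exon bases of a gene as its length. Tagln, Cald1, Myh11, Mylk and Cnn1 were thus the lower genes of the group, and the highest were Smtn and Myl9.

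Within each gene family the smooth muscle member was usually the minor one in these cells. Mylk made up 0.133% of the summed level per kilobase of the 4 light chain kinase genes in the GFP group, and 95.7% was Mylk3, which encodes the cardiac light chain kinase. Mylk3 had a log2 fold change of 0.14 (SE 0.13, adjusted p = 0.462 in the authors' deposited table). Myh11 made up 4.33% of the level of the smooth and non-muscle heavy chain genes with GFP and 5.70% with dnMKL1. Its non-muscle relatives Myh9 and Myh10 rose with log2 fold changes of 1.32 (SE 0.19) and 1.22 (SE 0.24) in the authors' deposited table, against 0.73 for Myh11, while Myh14 was at -0.24 (SE 0.16) and did not pass the test.

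The light chain genes did not move together. Myl9 fell from 14.8% to 7.19% of the summed level per kilobase of Myl9, Myl12a and Myl12b, the latter pair encoding the non-muscle regulatory light chains. Myl12b rose by 0.97 on the log2 scale (SE 0.25, adjusted p = 0.000592 in the authors' deposited table), and Myl12a, with 84.0% of the sum in the GFP group, was at -0.10 (SE 0.06, adjusted p = 0.231). Myl12a and Myl12b are close copies, and the split of reads between them is uncertain. Among calponins the share of Cnn2 went from 44.8% to 55.5% and that of Cnn3 from 54.4% to 43.7%, on the same scale. Which of the pair holds the larger share in a group depends on the length used, as given above. Smtn held 77.2% of the smoothelin family with GFP and 74.6% with dnMKL1, and most of the rest was Smtnl2, at a log2 fold change of 0.03 (SE 0.13) in the authors' deposited table.

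**Figure D4:**
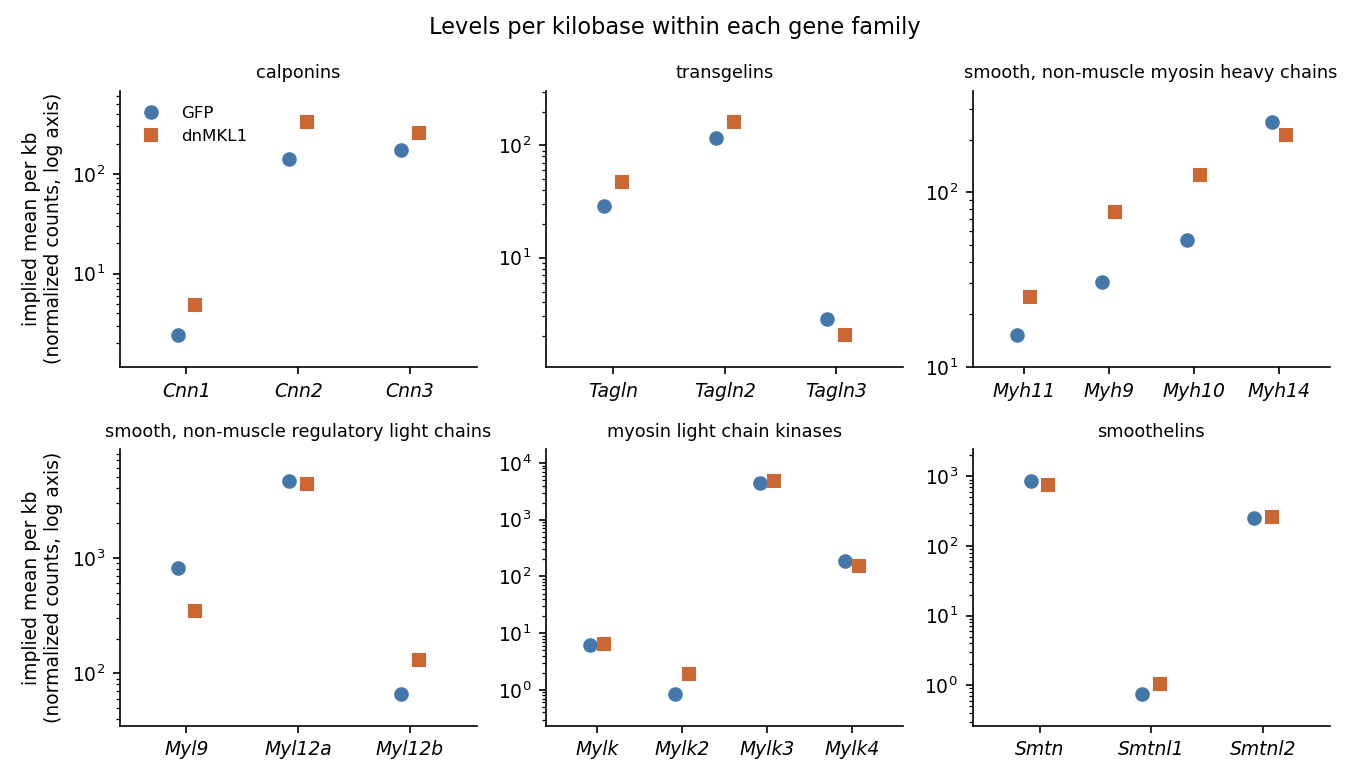
Implied means per kilobase of the longest transcript (normalized counts, log axis) within 6 gene families in the GFP group (circles) and the dnMKL1 group (squares). Myl9 drops from 817.2 to 344.8 while the heavy chains Myh11, Myh9 and Myh10 rise together, and Mylk lies far below Mylk3. Myh14, the highest of the heavy chain genes shown, goes from 251.0 to 213.2 and did not pass the test.

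Mkl1 aside, whose value includes the vector, 6 genes for SRF and its cofactors were listed, of which 2 rose, 1 fell and 3 did not pass the test. Over all genes tested, 16.6% were higher and 17.4% lower. Srf itself fell by 0.80 on the log2 scale (SE 0.10), whereas Myocd, the gene of myocardin, rose by 0.90 (SE 0.21) and Mkl2 by 0.43 (SE 0.08) in the authors' deposited table. Other filament genes of smooth muscle also held changes in both directions. Of 17 tested, 4 rose and 6 fell, against the same 16.6% and 17.4% of all genes tested. The other 7 did not pass, and the median log2 fold change of the 17 was 0.11. Tpm2, Csrp1 and Actn1, which encode a tropomyosin, a LIM-domain protein and an actin cross-linker, rose by 2.36 (SE 0.22), 1.50 (SE 0.16) and 1.02 (SE 0.13) in the authors' deposited table. Acta2, the smooth muscle actin gene that immature cardiomyocytes also express, fell by 1.06 (SE 0.25), and Tpm1 and Des, abundant in heart muscle, fell by 0.71 (SE 0.13) and 0.27 (SE 0.10). Des changes sign under scaling to equal totals, since its fall is smaller than the shift of 0.29.

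Markers of other cells that express smooth muscle genes were present at levels from very low to above those of most of the 10 genes, and none of the markers tabulated was at 0. The highest smooth muscle and mural markers were Acta2 and Abcc9, with base means of 7726 and 7052 normalized counts. The other mural markers ran from Higd1b at 15.7 to Cspg4 at 1260. Which cells the RNA of these markers came from was not tested. Apart from the 10 genes and Acta2, the smooth muscle markers Actg2, Lmod1, Susd5 and Itga8 had base means of 5.56, 6.23, 6.76 and 26.2 normalized counts, and none passed the test. Ntrk3 and Rergl had base means of 2.03 and 0.0726, while Tesc, at 944.0, did not pass either. With Acta2 included, the 8 markers had a sum of 11498 normalized counts for GFP and 5936 for dnMKL1, with 0 higher and 1 lower of 7 tested. Over all genes tested these shares were 16.6% and 17.4%. Acta2 made up 10454 and 4999 of these, and the other 7 markers summed to 1044 and 938. Of the 7 tested, 4 had positive log2 fold changes in the authors' deposited table. These were 0.26 (SE 0.26) for Itga8, 0.48 (SE 0.56) for Actg2, 0.68 (SE 0.58) for Lmod1 and 0.83 (SE 0.59) for Susd5. Ntrk3 and Tesc were negative, at -0.55 (SE 0.99) and -0.18 (SE 0.18), as was Acta2. The errors of the rare markers are too large to place them beside Myh11 and Tagln.

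The 9 mural markers summed to 7948 and 11293 normalized counts in the GFP and dnMKL1 groups, with a median log2 fold change of 0.18. Of these markers 2 were higher and 0 lower, against 16.6% and 17.4% of all genes tested. Abcc9 made up 6332 and 7773 of these counts and did not pass the test (adjusted p = 0.132 in the authors' deposited table), and the other 8 summed to 1617 and 3520. The 2 higher markers were Cspg4 at 2.01 (SE 0.18) and Mcam at 1.24 (SE 0.24). Notch3 and the pericyte genes Rgs5 and Pdgfrb did not pass, at 0.45 (SE 0.20), 0.01 (SE 0.31) and 0.18 (SE 0.24) in the authors' deposited table.

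Fibroblasts also express Cald1, Cnn2, Cnn3 and Tagln2. Of 12 fibroblast markers, 5 were higher and 0 lower, against 16.6% and 17.4% of all genes tested, with sums of 5228 and 8877 normalized counts. The higher ones were Col1a1, Col1a2, Col3a1, Gsn and Fbln1. The other 7 did not pass the test, with log2 fold changes from 0.02 (SE 0.24) for Mfap5 to 0.79 (SE 0.52) for Tcf21, and 0.06 (SE 0.25) for Pdgfra. Most of these sums came from Col3a1, with implied means of 1937 and 2625, Gsn, with 876.4 and 1951, and Fbln1, with 747.9 and 1944. Endothelial markers had 0 of 12 called in either direction, 0 at an unadjusted p under 0.05, and sums of 4295 and 4353. Macrophage markers, with 1 of 8 higher and 0 lower, summed to 159.7 and 138.1. Beside the endothelial and macrophage counts stand the same 16.6% and 17.4% of all genes tested. Cardiomyocyte markers had 0 of 10 higher and 7 lower, with a median log2 fold change of -0.68, among them Actc1, whose implied mean went from 326267 to 111228, and Myh6, from 768373 to 421599. All 10 of these markers have base means above 10000. They are thus among the 140 genes tested at that level, of which 70.7% were lower and 3.57% higher, with a median of -0.596. Since these shares include the markers themselves, they are no separate background, and the markers were not tested against the other genes of that level. The part of any of these cell types in the changes of the 10 genes was not tested.

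**Figure D5:**
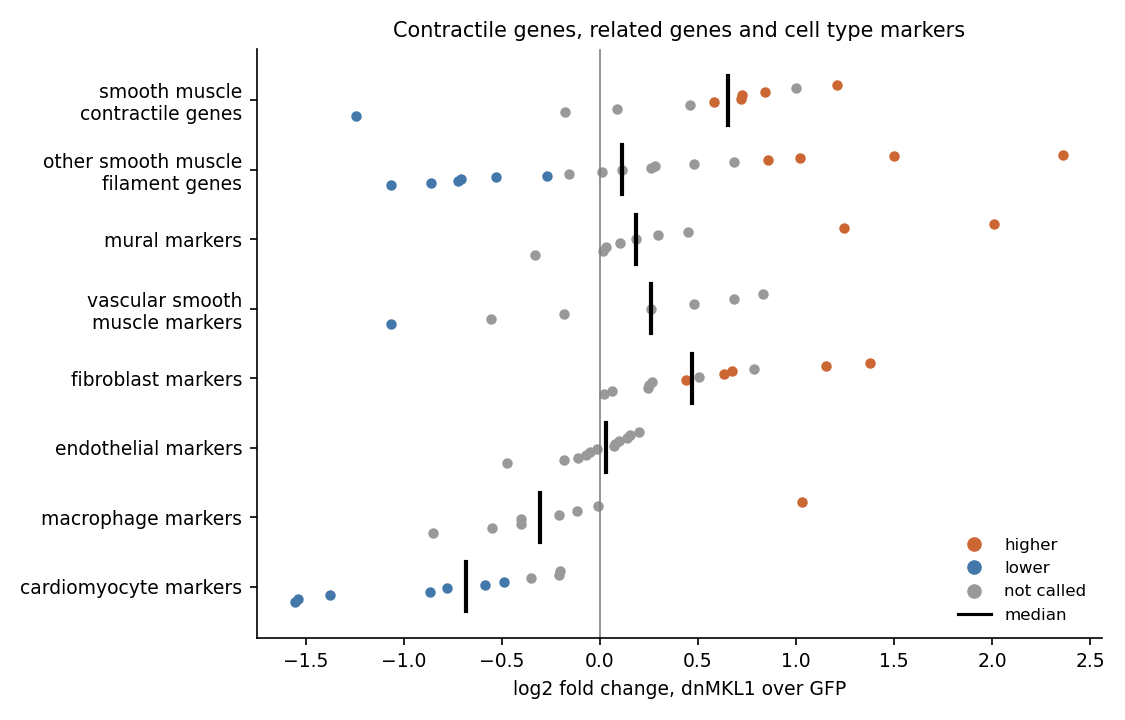
Log2 fold changes (dnMKL1 over GFP) of the 10 smooth muscle contractile genes, of other smooth muscle filament genes and of cell type markers; each point is a gene with an adjusted p-value, coloured where it is under 0.05, and the black bar is the median of the list. The contractile genes have a median of 0.65 with Myl9 apart at -1.24, endothelial markers lie close to 0 and cardiomyocyte markers below it.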

How the data were processed

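RNA was sequenced from sorted mouse cardiomyocytes in 5 GFP and 5 dnMKL1 libraries, described in the labels as biological replicates. Per the submitters' processing notes, STAR 2.5.3a, featureCounts, Subread 1.5.2, CASAVA 1.8 and the build mm10 were used; neither annotation nor strand setting is given in the sources used here. Per the file headers, the authors' deposited table has the columns of a DESeq2 results table. Its base mean is a signal in normalized counts, and the deposited fold change and SE are in log2 units. The Wald statistic as deposited is a score, and the deposited p-value and adjusted p-value are those of the Wald test.

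From these, 95% Wald intervals, implied group means (with equal weight for each group in the base mean) and the coefficient of variation that gives each SE under a negative binomial model were computed in Python 3.11.15 with numpy 2.4.6 and scipy 1.17.1. Size factors came from genes with 1 read in 1 library, and a library's total is its size factor times its group's summed implied means. The computations were tested on simulated data. Since no counts per library were at hand, the authors' test was used, at an adjusted p under 0.05. Neither an SD over replicates nor a leave-one-out fit nor an exact permutation test of a gene can be had without such values, and the SE carries the replicate error. Intervals cover no bias of amplification, as reads carry no molecular identifiers.

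Transcript lengths, exon overlaps and gene identities came from GENCODE vM21 on GRCm38, the assembly of mm10, in which all 10 genes matched by symbol. The genes, lists and tests were chosen with earlier results of these data known. The rule for naming took the 10 genes, Mkl1, Srf, and from each list the 3 genes with the smallest p-value and the 3 with the highest base mean, as well as markers needed to describe purity. Not every gene it allows is printed: endothelial and macrophage markers are given as counts and sums, and fibroblast and cardiomyocyte markers in part. One list of related genes is not reported here, apart from the relatives of Mylk within its family. The sums without Acta2 or Abcc9 were added after the values were seen. E130310I04Rik and Pcsk7 were named after their values were seen, and the other overlapping genes named have no values in the authors' table.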

Additional observations from a re-analysis of the deposited data

How the results depend on the processing

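The table gives no counts per library, so fits that leave out 1 library and count models were not run, and whether 1 library decides a value is unknown. No paired analysis was possible because the table compares group with group and carries no replicate numbers. The 5 higher genes became 3 at an adjusted p under 0.01 (Cnn3 and Cald1 no longer passed) and 1, Cnn2, with a log2 fold change of at least 1, since fewer genes can pass. Myl9 was the 1 lower gene under every alternative run. Scaling to equal totals, by its own shift, gave 7 higher genes, turned Smtn to 0.11 and moved the median of the 10 genes to 0.94. It moved the medians to 0.40 for the other filament genes, 0.53 for the paralogs and 0.55 for SRF and its cofactors. Adjustment over every p-value, a threshold of 0.1, a log2 fold change of at least 0.5 and median-centring changed no call among the 10 genes. Exon union length, chosen after seeing the data, kept 42 of 45 pairs in order in the GFP group. Depth limits Cnn1 most, at a base mean of 8.57 normalized counts.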
